A study of Mus musculus with 12 samples.

Results

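The 10 genes described here code for the receptor, the enzymes and the pumps with which the gut handles foreign compounds. They are Nr1i2 (PXR), Por, 6 cytochromes P450 (Cyp3a11, Cyp3a13, Cyp3a25, Cyp2b10, Cyp2c55 and Cyp1a1) and the efflux pumps Abcb1a and Abcc2. They were taken as the rows of the count table whose Ensembl identifier carries 1 of these symbols, and all 10 were found once among 54838 genes. Ileum RNA of adult female C57BL/6J mice was sequenced in 4 groups of 3 mice. The water + PBS and water + Dex mice drank normal water, and the ZnSO4 + PBS and ZnSO4 + Dex mice drank 25 mM ZnSO4 for 7 days. The Dex groups then received 200 µg dexamethasone (Dex), a synthetic glucocorticoid, intraperitoneally, the PBS groups received PBS alone, and all mice were sampled 2 h later. The 4 groups share strain and sex and carry no engineered allele. The samples were pieces of whole ileum and so held muscle and immune cells beside the epithelium.

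PXR is a nuclear receptor that binds a wide range of drugs, steroids and bile acids and, together with RXR, switches on genes of drug metabolism and transport. Cyp3a11 is a classical PXR target in the mouse, Cyp2b10 is the classical target of the related receptor CAR, and Cyp1a1 is the classical target of the aryl hydrocarbon receptor. Microsomal cytochromes P450 take their electrons from POR, the product of Por. Abcb1a (P-glycoprotein) and Abcc2 (MRP2) pump compounds and conjugates out of cells, in the enterocyte back towards the lumen.

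The libraries held 10760132 to 11827487 counts, and all 10 genes were among the 15938 genes tested. Levels are given as normalised counts, the counts divided by the effective library size and multiplied by the mean effective library size, and differences as LFC, the log2 fold change from edgeR's quasi-likelihood model over all 4 groups. A gene was called when its Benjamini-Hochberg adjusted p over all tested genes was under 0.05. The treatments were visible in genes known to respond to them. The summed level of 4 zinc-responsive genes (Mt1, Mt2, Slc39a4 and Slc30a2) lay between 3777 and 5876 in the mice on water and between 16571 and 36692 in the mice on ZnSO4. This sum mixes directions: Mt1, Mt2 and Slc30a2 were called higher on ZnSO4, and Slc39a4 lower (LFC -2.95 in PBS mice and -3.49 in Dex mice). The summed level of 4 glucocorticoid-induced genes (Fkbp5, Tsc22d3, Per1 and Zbtb16) lay between 1904 and 2151 after PBS and between 17263 and 20801 after Dex. All 8 markers of distal enterocytes, among them Fabp6, Slc10a2 and Fgf15, were detected, with summed levels of 67833 to 124156. Several libraries stood apart in their cell markers. ZnSO4 + Dex replicate 2 had 108001 normalised counts over 8 enterocyte markers, against 196620 to 261223 in the other 11 libraries. Its 6 smooth muscle markers summed to 30347 and those of ZnSO4 + PBS replicate 3 to 30818, against 14568 to 24046 in the other 10 libraries. The enterocyte markers of ZnSO4 + PBS replicate 3 summed to 209731. The 8 hepatocyte markers were uneven, at 5267 in water + Dex replicate 3, 3030 in ZnSO4 + Dex replicate 2 and 31.5 to 726 elsewhere. The 8 B cell markers summed to 7388 in water + PBS replicate 2 and 5529 in ZnSO4 + PBS replicate 2, against 140 to 2675 elsewhere. None of these enterocyte, smooth muscle, hepatocyte and B cell markers was at 0 in all libraries. In such tissue, fewer cells of a type and less RNA per cell cannot be told apart.

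As CPM (counts scaled to the effective library size) per kilobase of exon, levels in the water + PBS mice were 115 ± 5.11 for Cyp3a13 (SD, n = 3), 74.2 ± 15.0 for Abcb1a, 39.4 ± 4.20 for Cyp3a25 and 35.1 ± 3.65 for Nr1i2. They were 15.7 ± 1.77 for Por, 12.5 ± 4.44 for Cyp2c55, 8.16 ± 1.66 for Cyp3a11 and 6.63 ± 1.69 for Abcc2. Cyp1a1 (0.554 ± 0.162) and Cyp2b10 (0.282 ± 0.138) were at the low end. The neighbours Cyp3a25 and Nr1i2, Por and Cyp2c55, Cyp2c55 and Cyp3a11, Cyp3a11 and Abcc2, and Cyp1a1 and Cyp2b10 differed by less than the sum of their SDs. On this scale Cyp2c55 had the highest mean of the 10 in the ZnSO4 + PBS mice (230 ± 167), above Abcb1a (176 ± 47.1) and Cyp3a13 (113 ± 33.9), with a spread that spans both. In the water + Dex mice Cyp3a13 led (244 ± 11.5), Cyp3a11 stood at 39.2 ± 20.9, Cyp2c55 at 14.5 ± 10.2 and Cyp2b10 at 4.29 ± 0.190. In the ZnSO4 + Dex mice Cyp3a13 (174 ± 69.1), Cyp2c55 (150 ± 169), Abcb1a (114 ± 65.5), Cyp3a25 (79.0 ± 43.1) and Cyp3a11 (74.3 ± 53.0) each overlapped the next within 1 SD, and Cyp2b10 stood at 5.41 ± 3.11. These levels depend on the counting: reads with more than 1 position were left out, and 45.9% of the 31-base stretches of Cyp3a25, 28.2% of those of Abcb1a, 19.4% of those of Cyp2b10 and 15.8% of those of Cyp3a11 occur in another gene, mainly in Cyp3a59, Abcb1b, Cyp2b13 and Cyp3a41a, respectively. For the other 6 genes this share was at most 5.52%.

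**Figure D1:**
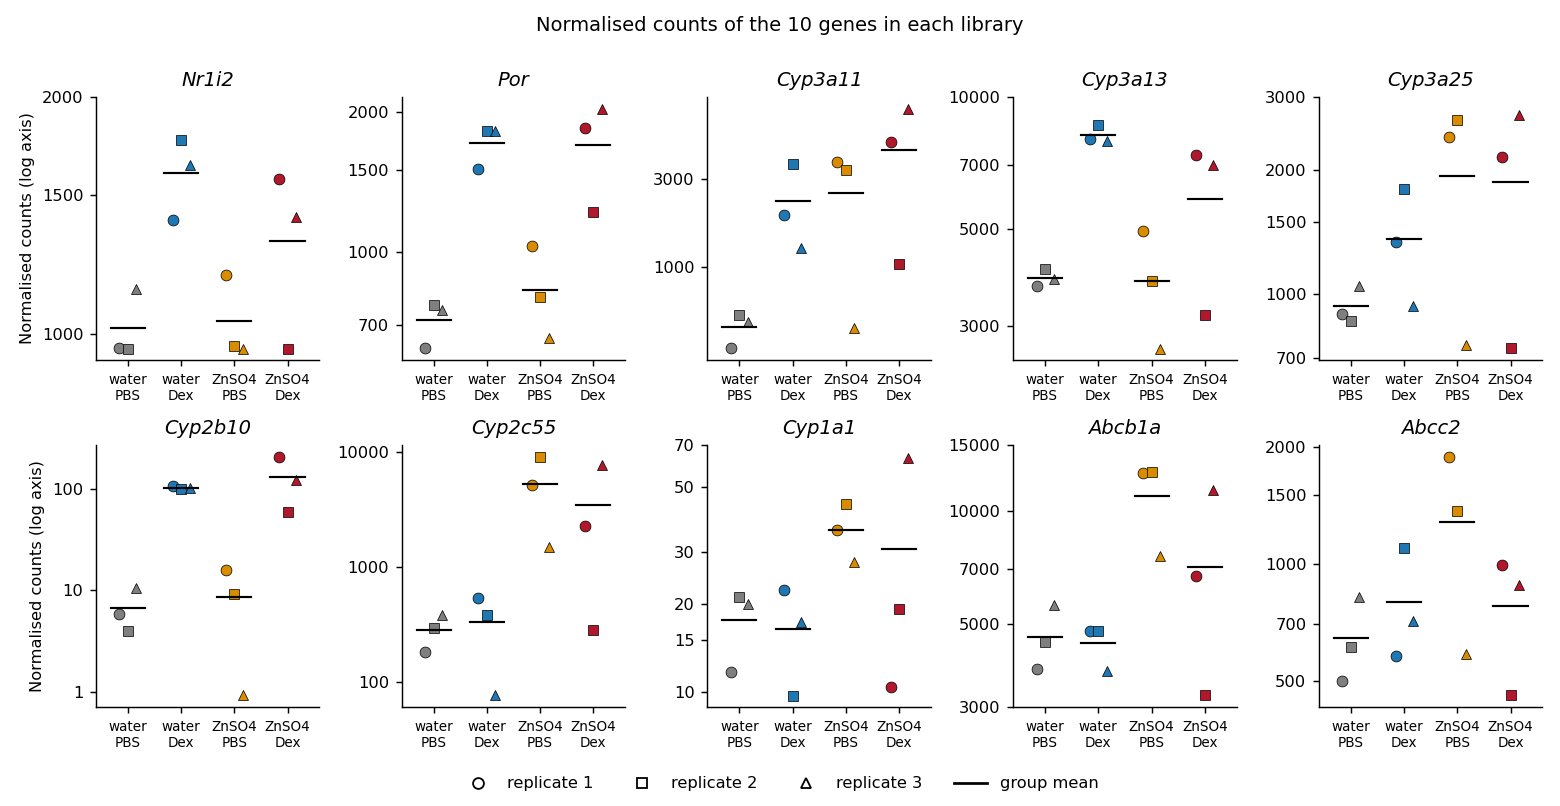
Normalised counts (log axis, a separate scale in each panel) of the 10 genes in the 12 libraries, with 1 symbol per replicate and a bar at the group mean. Por and Cyp2b10 lie higher after Dex in every mouse on either drink, whereas Cyp2c55 and Abcb1a lie higher in most mice on ZnSO4 and vary widely among them.

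PXR itself was moderately expressed in all groups. Nr1i2 (ENSMUSG00000022809, chr16:38248323-38294824, minus strand, GRCm38, as for all positions here) stood at 959, 956 and 1141 normalised counts in the water + PBS mice and at 1397, 1763 and 1641 in the water + Dex mice. The 2 groups did not overlap, and the LFC for Dex in mice on water was 0.65 ± 0.17 (SE, adjusted p = 0.030). It stood at 1189, 966 and 958 in the ZnSO4 + PBS mice and at 1574, 956 and 1408 in the ZnSO4 + Dex mice. There replicate 2 of the Dex group was as low as the PBS mice, and the LFC of Dex was 0.34 ± 0.17 (adjusted p = 0.23, and 0.023 without ZnSO4 + Dex replicate 2, with an LFC of 0.52). In mice on water the call was lost without water + Dex replicate 2 (adjusted p = 0.12) or 3 (0.10), or without water + PBS replicate 1 (0.11) or 2 (0.099). ZnSO4 left Nr1i2 at an LFC of 0.03 in PBS mice (95% interval -0.34 to 0.39) and -0.29 in Dex mice (-0.65 to 0.08).

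Por rose with Dex on both drinks. Por (ENSMUSG00000005514, chr5:135670033-135735326, plus strand) stood at 624, 772 and 754 in the water + PBS mice and at 1512, 1825 and 1818 in the water + Dex mice. It stood at 1033, 804 and 657 in the ZnSO4 + PBS mice and at 1853, 1221 and 2030 in the ZnSO4 + Dex mice. In both settings every Dex mouse was above every PBS mouse. The LFC of Dex was 1.26 ± 0.20 in mice on water (adjusted p = 0.0017, a 2.40-fold rise with a 95% interval of 1.78 to 3.24) and 1.03 ± 0.20 in mice on ZnSO4 (adjusted p = 0.0043, 2.05-fold). It was called in all 12 fits without 1 library in either setting. ZnSO4 gave LFCs of 0.21 in PBS mice and -0.01 in Dex mice, with intervals of -0.22 to 0.64 and -0.44 to 0.41.

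Cyp2b10 (ENSMUSG00000030483, chr7:25897620-25926624, plus strand), an enzyme that oxidises barbiturates and steroids, showed the largest Dex difference of the 10 genes. In the PBS groups it was near the limit of detection, with 6, 4 and 11 reads in the water mice and 17, 10 and 1 reads in the ZnSO4 mice. After Dex it had 97, 92 and 94 reads in the water mice and 201, 62 and 114 in the ZnSO4 mice. As normalised counts this was 5.84, 4.01 and 10.5 against 108, 99.4 and 102 on water, and 16.0, 9.15 and 0.926 against 208, 59.6 and 122 on ZnSO4. The groups did not overlap on either drink. The LFC was 3.90 ± 0.62 on water (adjusted p = 0.0020, 14.9-fold, 95% interval 5.77 to 38.4) and 3.88 ± 0.60 on ZnSO4 (adjusted p = 0.0011, 14.8-fold, 5.95 to 36.6), and it was called in all 12 fits without 1 library in both settings. The difference between these LFCs was -0.01 (95% interval -1.41 to 1.38, adjusted p = 1.0). The enterocyte marker sum was 233168 to 261223 in the water + Dex mice and 196620 to 219716 in the water + PBS mice. The hepatocyte marker sum spanned 33.4 to 5267 over the water + Dex mice, and their Cyp2b10 levels were 99.4 to 108. The part of these markers in the Cyp2b10 values was not tested. The genes whose log2 CPM followed Cyp2b10 most closely over the 12 libraries were Fyb2 (Pearson r = 0.981), Gm19439 (0.979) and Akr1b7 (0.975). As a description, these values rest on the same 12 libraries and on their split by Dex.

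The promoters of the 2 genes called for Dex on both drinks are shown because both moved at 2 h. They run from 250 bases before to 50 bases after RefSeq's start site (GRCm38.p6), 5′ to 3′ on the gene's strand. Cyp2b10 is at chr7:25897408-25897707 (plus strand) and Por at chr5:135688895-135689194 (plus strand). Capitals mark matches to the letters searched.
Cyp2b10: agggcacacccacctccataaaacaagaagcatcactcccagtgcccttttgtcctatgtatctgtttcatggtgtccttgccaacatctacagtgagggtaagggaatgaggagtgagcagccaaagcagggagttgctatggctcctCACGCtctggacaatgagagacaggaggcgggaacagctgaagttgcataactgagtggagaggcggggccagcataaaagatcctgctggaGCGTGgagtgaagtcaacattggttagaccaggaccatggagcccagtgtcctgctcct
Por: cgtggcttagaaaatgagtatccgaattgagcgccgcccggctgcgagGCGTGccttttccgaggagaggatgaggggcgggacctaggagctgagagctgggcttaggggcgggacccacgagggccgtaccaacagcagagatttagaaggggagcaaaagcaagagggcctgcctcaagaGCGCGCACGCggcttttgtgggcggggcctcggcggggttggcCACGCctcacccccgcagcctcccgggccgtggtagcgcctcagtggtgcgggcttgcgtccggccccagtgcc
On both strands, 7 sets of letters were searched: the nuclear receptor half-site AGGTCA and its variant AGTTCA, the glucocorticoid receptor half-site AGAACA, the xenobiotic response element core GCGTG, the metal response element cores TGCACNC and TGCGCNC, and the antioxidant response element core TGACNNNGC. Among 32851 promoters of this length they were present in 16.3%, 14.0%, 19.0%, 32.4%, 12.6%, 15.4% and 12.4%, respectively. Cyp2b10 held GCGTG at 2 places, with first bases at -101 (minus strand) and -9 (plus strand) from the start site. Por held GCGTG at 3 places, at -202, -62 and -24, and TGCGCNC at -67. Neither held any of the 3 receptor half-sites in this window. GCGTG also occurred once in the promoter of Cyp1a1, at -54, and in none of the other 7 genes. Such matches describe the sequence and are not shown to be bound.

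Of the 3 Cyp3a genes, whose products oxidise many drugs, steroids and bile acids, Cyp3a13 was called for Dex and the other two in no comparison. Cyp3a13 (ENSMUSG00000029727, chr5:137892932-137921619, minus strand) stood at 3694, 4035 and 3835 in the water + PBS mice and at 8037, 8654 and 7938 in the water + Dex mice. These groups were far apart relative to their spread, with an LFC of 1.09 ± 0.28 (adjusted p = 0.029, 2.13-fold). The model takes its spread from all 4 groups, and Cyp3a13 varied more on ZnSO4, with 4937, 3796 and 2655 in the ZnSO4 + PBS mice and 7385, 3172 and 6984 in the ZnSO4 + Dex mice. There the LFC of Dex was 0.62 ± 0.28 (adjusted p = 0.18, and 0.0085 with an LFC of 0.92 without ZnSO4 + Dex replicate 2). Without any 1 of the 6 water libraries the adjusted p on water lay between 0.070 (without water + Dex replicate 1) and 0.096 (without water + PBS replicate 1), with LFCs of 1.04 to 1.12. When the 2 water groups were fitted alone, it was 1.5e-04. The ZnSO4 + Dex mice all lay below the water + Dex mice, with an LFC of -0.49 (95% interval -1.10 to 0.12, adjusted p = 0.38).

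Cyp3a11 (ENSMUSG00000056035, chr5:145854426-145879964, minus strand) was low in the water + PBS mice, at 365, 550 and 504. It stood at 1917, 3619 and 1274 in the water + Dex mice, at 3696, 3344 and 469 in the ZnSO4 + PBS mice and at 4759, 1036 and 7127 in the ZnSO4 + Dex mice. All Dex mice on water were above all PBS mice on water, whereas on ZnSO4 replicate 3 of the PBS group stayed at the water + PBS level. The LFCs were 2.26 ± 0.76 for Dex on water (4.80-fold, adjusted p = 0.092) and 2.40 ± 0.77 for ZnSO4 in PBS mice (5.29-fold, adjusted p = 0.10), so neither was called. The first was called without ZnSO4 + PBS replicate 3 (adjusted p = 0.036) or ZnSO4 + Dex replicate 2 (0.043), which enter only through the shared spread, and with the 2 water groups alone (0.0095). DESeq2 as run here gave adjusted p values of 0.051 and 0.047, respectively. The study's own DESeq2 analysis of this experiment listed Cyp3a11 as significantly higher with Dex and with zinc. The interaction of the treatments was -1.48 (95% interval -3.74 to 0.78, adjusted p = 0.96). The 2 libraries with high hepatocyte marker sums had the lowest Cyp3a11 of their groups (1274 and 1036). The second, ZnSO4 + Dex replicate 2, also had the lowest enterocyte marker sum (108001). The part of either cell type in the Cyp3a11 values was not tested here.

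Cyp3a25 (ENSMUSG00000029630, chr5:145977194-146009618, minus strand) stood at 894, 862 and 1048 in the water + PBS mice, at 1341, 1798 and 939 in the water + Dex mice, at 2409, 2635 and 753 in the ZnSO4 + PBS mice and at 2150, 740 and 2723 in the ZnSO4 + Dex mice. Every group other than water + PBS held a mouse below the highest water + PBS value. No comparison was called, the LFC for ZnSO4 in PBS mice being 1.05 ± 0.48 (adjusted p = 0.26). Over the 12 libraries the log2 CPM of Cyp3a11 was closest to that of Fam84a (Pearson r = 0.902), Cyp3a25 (0.901) and Acsl3 (0.896), and all of these values draw on the same low libraries on ZnSO4. Of the other Cyp3a genes 4 of 6 were too low to test. Cyp3a59 was low, at 11 to 45 reads per library, and 49.9% of it is shared, mainly with Cyp3a25. It was called higher for Dex on ZnSO4 (LFC 0.91 ± 0.25, adjusted p = 0.033) and for both treatments averaged (Dex 0.83, adjusted p = 0.0075, and ZnSO4 0.86, adjusted p = 0.012). Cyp3a44 was not called in any comparison, with an LFC of 2.12 ± 0.82 for ZnSO4 in PBS mice (adjusted p = 0.17). The study's own analysis listed Cyp3a44 as significantly higher with zinc.

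The promoters of this pair are shown because the 2 genes varied together across the libraries. Cyp3a11 is at chr5:145879805-145880104 and Cyp3a25 at chr5:146009569-146009868, both on the minus strand.
Cyp3a11: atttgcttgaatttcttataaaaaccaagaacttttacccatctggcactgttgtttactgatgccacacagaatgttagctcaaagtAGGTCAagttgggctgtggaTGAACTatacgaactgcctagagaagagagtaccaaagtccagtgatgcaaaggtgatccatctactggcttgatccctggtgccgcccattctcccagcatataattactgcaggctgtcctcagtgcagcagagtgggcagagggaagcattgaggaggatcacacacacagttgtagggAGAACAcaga
Cyp3a25: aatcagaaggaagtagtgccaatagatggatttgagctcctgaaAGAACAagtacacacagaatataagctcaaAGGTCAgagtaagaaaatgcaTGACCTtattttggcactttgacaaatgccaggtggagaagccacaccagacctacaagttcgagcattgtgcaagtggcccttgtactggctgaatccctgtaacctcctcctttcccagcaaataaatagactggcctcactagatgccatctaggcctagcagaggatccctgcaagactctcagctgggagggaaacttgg
Cyp3a11 held AGGTCA with its first base at -162, AGTTCA on the opposite strand at -142 and AGAACA at 41. Cyp3a25 held AGGTCA at -176, AGGTCA again on the opposite strand at -155, and AGAACA at -206. The promoter of Cyp3a13 held none of the 7 sets of letters. AGGTCA was found in 3 of the 10 promoters (Cyp3a11, Cyp3a25 and Abcc2).

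Cyp2c55, an arachidonic acid metabolising cytochrome P450 of the gut, had the largest ZnSO4 difference of the 10 genes. It stood at 179, 291 and 380 normalised counts in the water + PBS mice and at 5119, 9044 and 1466 in the ZnSO4 + PBS mice. After Dex it stood at 528, 382 and 75.6 on water and at 2242, 281 and 7696 on ZnSO4. Without Dex all mice on ZnSO4 were above all mice on water. With Dex, ZnSO4 + Dex replicate 2 was below 2 of the water mice. The LFC was 4.20 ± 1.08 in PBS mice (18.4-fold, 95% interval 3.58 to 94.2, adjusted p = 0.049) and 3.37 ± 1.04 in Dex mice (10.4-fold, 2.13 to 50.4, adjusted p = 0.099). Averaged over PBS and Dex mice it was 3.79 ± 0.75 (adjusted p = 0.0071), called in all 12 fits without 1 library (adjusted p up to 0.024). The call in PBS mice was close to the threshold. With 1 library left out it held when that library was ZnSO4 + Dex replicate 2 or 3 and was lost for any of the other 10, with adjusted p values of 0.014 to 0.16 and LFCs of 3.54 to 4.64. With RLE factors in place of TMM the adjusted p was 0.051. In Dex mice the adjusted p was 0.031 without ZnSO4 + Dex replicate 2 (LFC 3.92). Dex itself gave an LFC of 0.21 on water (95% interval -1.99 to 2.41) and -0.61 on ZnSO4 (-2.66 to 1.43).

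The 3 genes with the log2 CPM closest to that of Cyp2c55 over the 12 libraries were Abcb1a (Pearson r = 0.949), Gm15368 (0.949) and Cyp2c65 (0.944). Cyp2c65, a neighbouring family member, was called higher on ZnSO4 in PBS mice (LFC 1.41 ± 0.31, adjusted p = 0.028). Cyp2c55 (ENSMUSG00000025002) lies at chr19:39007019-39042693 (plus strand). Its promoter (chr19:39006769-39007068) is shown for the gene's ZnSO4 difference, and it holds none of the 7 sets of letters, the metal response element cores included.
Cyp2c55: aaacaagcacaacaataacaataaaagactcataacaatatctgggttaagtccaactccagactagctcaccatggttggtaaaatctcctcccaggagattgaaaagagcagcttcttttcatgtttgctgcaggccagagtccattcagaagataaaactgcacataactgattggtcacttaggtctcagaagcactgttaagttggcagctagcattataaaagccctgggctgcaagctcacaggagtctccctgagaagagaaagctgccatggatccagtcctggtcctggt

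Cyp1a1 (ENSMUSG00000032315, chr9:57687928-57703824, plus strand), which oxidises polycyclic aromatic compounds, was close to the detection limit throughout. It had 12, 21 and 21 reads in the water + PBS mice, 20, 9 and 16 in the water + Dex mice, 38, 48 and 30 in the ZnSO4 + PBS mice and 10, 20 and 59 in the ZnSO4 + Dex mice. As normalised counts the ZnSO4 + PBS mice (27.8 to 43.9) were all above the water + PBS mice (11.7 to 21.1), with an LFC of 1.02 ± 0.54 (adjusted p = 0.33). The ZnSO4 + Dex mice (10.4, 19.2 and 63.0) held both a value below all water + PBS mice and the highest value of the 12. No comparison of Cyp1a1 was called, and the 2.03-fold difference in PBS mice had a 95% interval of 0.890 to 4.65. The closest profiles were those of Odf3b (Pearson r = 0.860 over 12 libraries), Atn1 (0.831) and AC126807.1 (0.811).

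Of the pumps, Abcb1a was the one called. Abcb1a (ENSMUSG00000040584, chr5:8660077-8748575, plus strand) stood at 3785, 4466 and 5633 in the water + PBS mice and at 12617, 12719 and 7587 in the ZnSO4 + PBS mice, without overlap. It stood at 4799, 4793 and 3757 in the water + Dex mice and at 6701, 3245 and 11382 in the ZnSO4 + Dex mice, where replicate 2 lay below all Dex mice on water. The LFC of ZnSO4 was 1.25 ± 0.36 in PBS mice (2.37-fold, adjusted p = 0.078), 0.68 ± 0.36 in Dex mice (adjusted p = 0.35) and 0.96 ± 0.26 averaged over both (1.95-fold, adjusted p = 0.031). The averaged call held when water + PBS replicate 3, ZnSO4 + PBS replicate 3 or ZnSO4 + Dex replicate 2 was left out and was lost for each of the other 9 libraries, with adjusted p values of 0.0027 to 0.073 and LFCs of 0.70 to 1.13. In PBS mice Abcb1a was called without ZnSO4 + Dex replicate 2 (adjusted p = 0.016) or 3 (0.035) and by DESeq2 (0.030). Dex gave an LFC of -0.06 on water (95% interval -0.84 to 0.73) and -0.63 on ZnSO4 (-1.41 to 0.16, adjusted p = 0.31, and 0.041 with an LFC of -1.14 without ZnSO4 + Dex replicate 3). Gm42686 on the opposite strand covers 10.1% of its exons. Abcb1b, the second P-glycoprotein gene, was not called (LFC -0.38 ± 0.19 for ZnSO4 in PBS mice, adjusted p = 0.29).

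Abcc2 (ENSMUSG00000025194, chr19:43782192-43840740, plus strand) stood at 499, 611 and 822 in the water + PBS mice, at 578, 1096 and 711 in the water + Dex mice, at 1888, 1370 and 585 in the ZnSO4 + PBS mice and at 992, 458 and 884 in the ZnSO4 + Dex mice. All 4 groups overlapped. The LFC of ZnSO4 was 0.99 ± 0.41 in PBS mice (adjusted p = 0.20) and -0.03 ± 0.40 in Dex mice (adjusted p = 0.98). The difference between these LFCs was -1.02, with a 95% interval of -2.28 to 0.23 and an unadjusted p of 0.10, the lowest interaction p of the 10 genes.

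Read as a group, 4 of the 10 genes (Cyp2b10, Por, Cyp3a13 and Nr1i2) were called for Dex in mice on water, all higher, where 9.93% of all tested genes were called in either direction. For Dex in mice on ZnSO4 it was 2 of 10 (Cyp2b10 and Por), with 13.7% of all genes called. The median LFC of the 10 was 0.60 and 0.15, against -0.014 and 0.009 over all genes. For ZnSO4 it was 1 of 10 in PBS mice (Cyp2c55), with 4.66% of all genes called, and 0 of 10 in Dex mice, with 4.37% called. In Dex mice 1 of the 10 had an unadjusted p under 0.05, and DESeq2 called 1, Cyp2c55 in both cases. Among all genes 3048 had an unadjusted p under 0.05 in that comparison, and DESeq2 called 1022. The median LFC of the 10 was 1.01 and 0.40. Averaged over the other treatment, 4 of 10 were called for Dex (21.5% of all genes) and 2 of 10 for ZnSO4, namely Cyp2c55 and Abcb1a (12.8% of all genes). All of these calls were rises. For the interaction edgeR called 0 of the 10 and 0% of all genes, with 794 genes at an unadjusted p under 0.05, and DESeq2 called 0 of the 10 and 6 genes in all. Without the 2 libraries highest in smooth muscle markers (ZnSO4 + PBS replicate 3 and ZnSO4 + Dex replicate 2), an alternative chosen after seeing the data, 5 and 3 of the 10 were called for Dex on water and on ZnSO4, where 11.5% and 9.64% of all genes tested in that fit were called. For ZnSO4 in PBS and in Dex mice it was 5 and 2 of the 10, with 3.02% and 3.29% of all genes called. Since the 10 genes are also low in these libraries, leaving them out raises the ZnSO4 levels by construction.

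**Figure D2:**
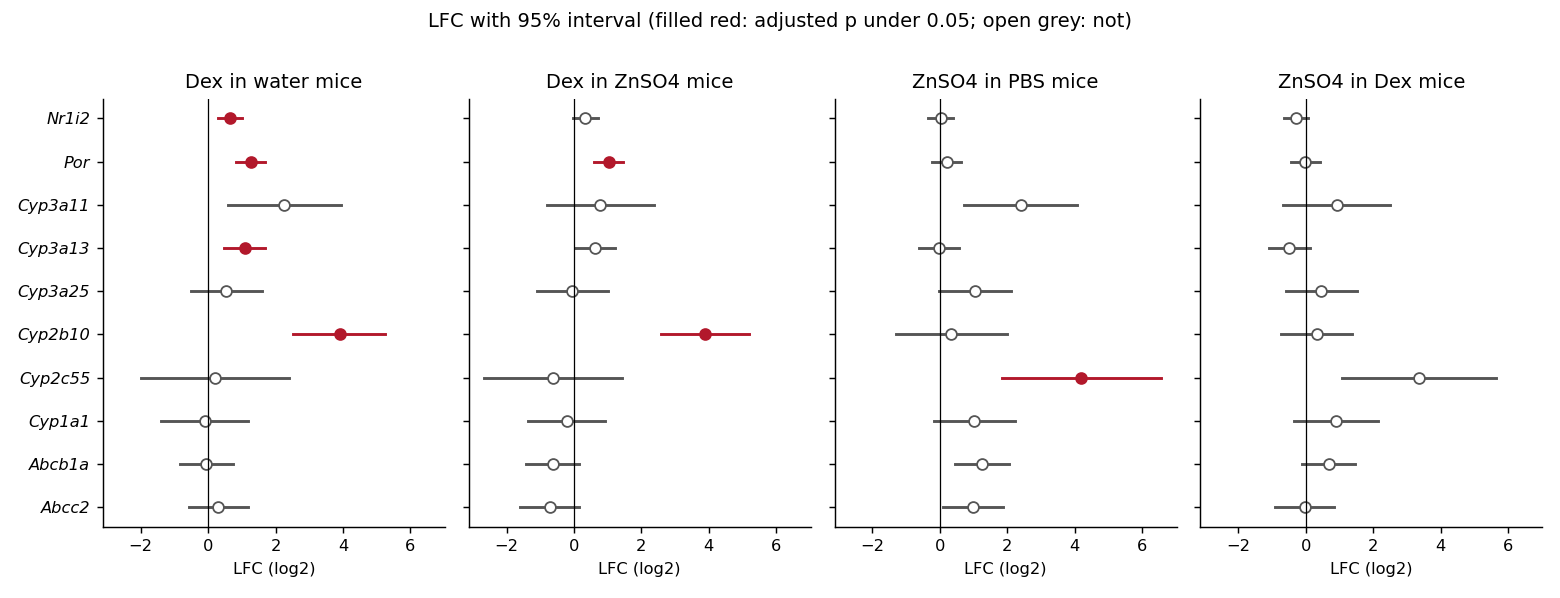
LFC (log2, horizontal axis) with its 95% interval for the 10 genes in 4 comparisons, filled red where the adjusted p was under 0.05 and open grey where it was not. Cyp2b10 and Por are filled in both Dex panels, Cyp2c55 is the filled gene in the panel of ZnSO4 in PBS mice, and no gene is filled in the panel of ZnSO4 in Dex mice.

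The mice on ZnSO4 differed among themselves, and they did so in the same mice for most of the 10 genes. ZnSO4 + PBS replicate 3 had the lowest level of its group for 10 of the 10 genes, where it was the lowest of its group for 32.4% of all tested genes. ZnSO4 + Dex replicate 2 was the lowest of its group for 9 of the 10, the exception being Cyp1a1, against 35.6% of all tested genes. On water the spread was less one-sided, and the library most often at the bottom of its group was water + PBS replicate 1. It was lowest for 7 of the 10, against 34.8% of all tested genes. The gap was wide for Cyp3a11 (469 against 3344 and 3696, and 1036 against 4759 and 7127) and Cyp2c55 (1466 against 5119 and 9044, and 281 against 2242 and 7696), and narrow for Nr1i2 (958 against 966 and 1189 in the PBS group). Among 111 other tested genes of drug metabolism, ZnSO4 + PBS replicate 3 was lowest for 42 (37.8%) and ZnSO4 + Dex replicate 2 for 47 (42.3%). These 2 libraries are those with the highest smooth muscle marker sums, and the second has the lowest enterocyte marker sum. The zinc-responsive genes summed to 30168 and 36692 in them, within or above the range of the other mice on ZnSO4. Beyond a fit with the mean level of the 8 enterocyte markers as a covariate, chosen after seeing the data, the part of tissue makeup in these values was not tested. In that fit Cyp3a11 had a ZnSO4 LFC of 2.53 in PBS mice (adjusted p = 0.015) and Abcb1a 1.37 (0.0063), Cyp2c55 4.63 (0.012) and Abcc2 1.05 (0.038), and these were the 4 of 10 called, with 6.94% of all genes called in that fit. For Dex 4 of 10 genes were called on each drink, with 10.9% of all genes called on water and 12.7% on ZnSO4. Krt20, 1 of the 8 enterocyte markers, was itself called lower on ZnSO4, averaged over PBS and Dex mice (LFC -0.47 ± 0.13, adjusted p = 0.040). In the same comparison, 4 of the 5 T cell markers (Cd3e, Cd3d, Cd3g and Cd8a) were called lower, with LFCs of -0.89 to -1.27 and adjusted p values of 3.1e-04 to 0.021. The goblet cell markers Muc2 (0.85, adjusted p = 0.0027) and Tff3 (0.37, adjusted p = 0.011) and the smooth muscle marker Tagln (0.50, adjusted p = 0.037) were called higher, and the Paneth cell marker Mmp7 (-0.57, adjusted p = 0.037) and the proximal enterocyte marker Slc46a1 (-0.51, adjusted p = 0.044) lower. The part of these markers in the ZnSO4 values of the 10 genes was not tested.

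**Figure D3:**
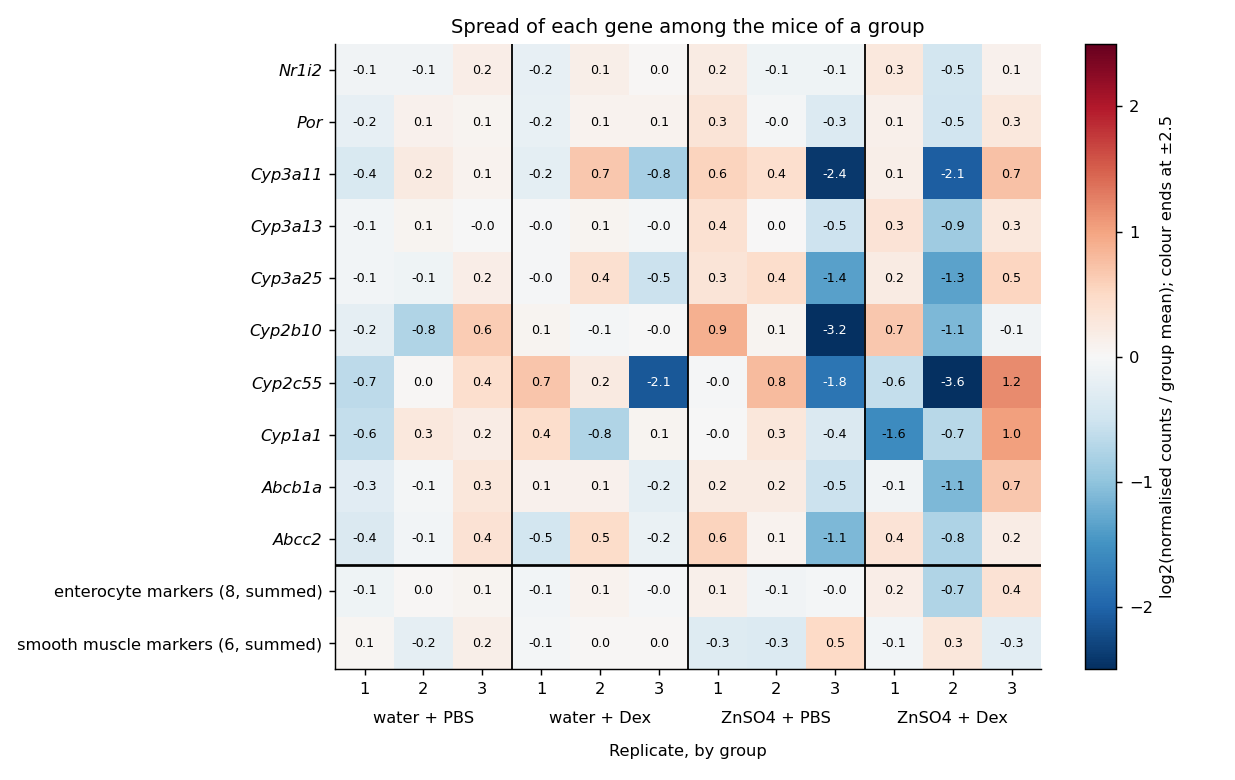
Difference of each library from the mean of its group, as log2 of the ratio of normalised counts (colour and number), for the 10 genes and for the summed enterocyte and smooth muscle markers. ZnSO4 + PBS replicate 3 is below its group mean in all 10 genes and ZnSO4 + Dex replicate 2 likewise, while their smooth muscle markers are above it.

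The wider pathway was read from 147 further genes in 7 lists, of which 111 were tested. The lists, like the 10 genes, were written with earlier results of these data known, so their counts describe them and support nothing about them. For ZnSO4, 19 were called higher and 0 lower in PBS mice and 15 higher and 0 lower in Dex mice, where 2.11% and 1.83% of all genes were called higher and 2.54% lower in both. Of these, 12 were called in both settings, or 63.2% of the first and 80.0% of the second. Among all genes 356 were shared, 48.0% and 51.1%. The settings share no library, but the model takes each gene's spread from all groups, so calls in both are not independent, for Dex likewise. For Dex, 15 were called higher and 6 lower on water, and 15 higher and 9 lower on ZnSO4, where 5.41% and 6.65% of all genes were called higher and 4.51% and 7.08% lower. Of these, 18 were called in both settings, 85.7% of the first and 75.0% of the second, and among all genes 1196 were shared, 75.6% and 54.6%.

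**Figure D4:**
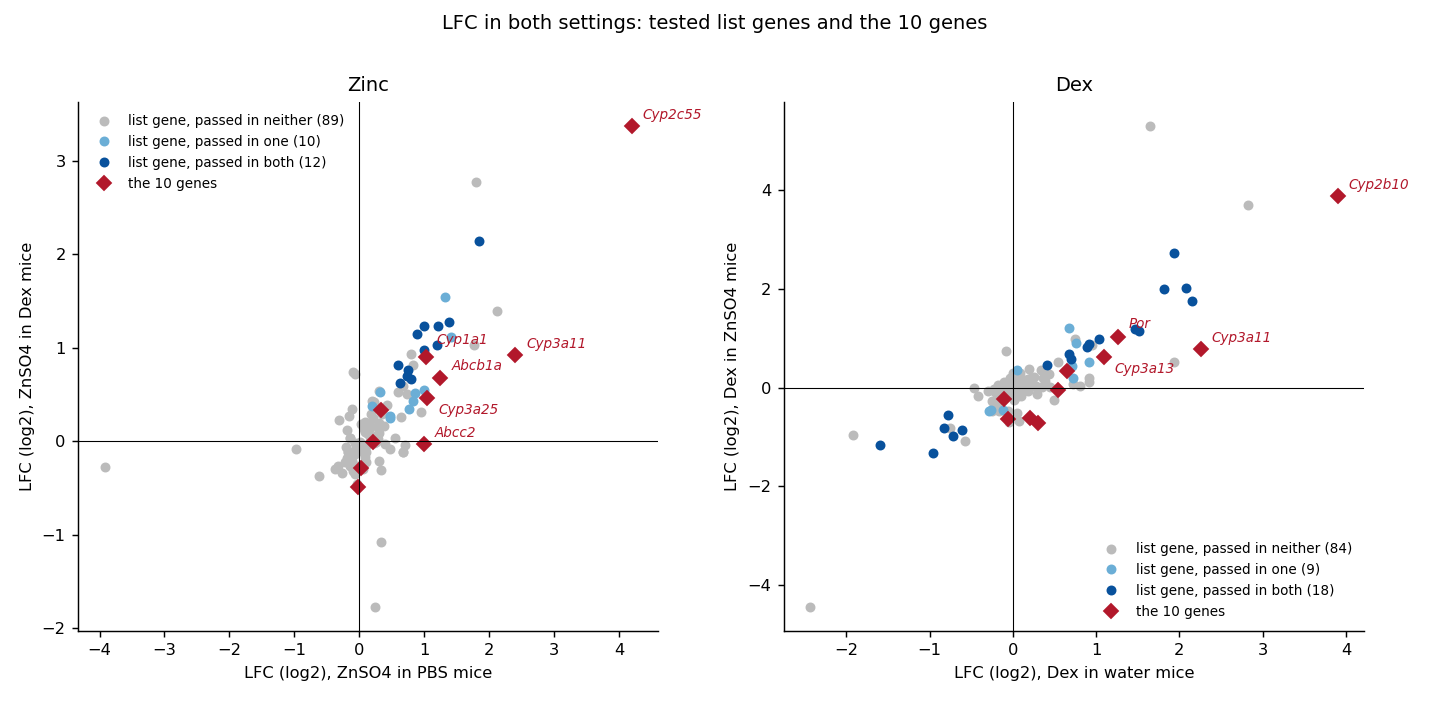
LFC (log2) in the first setting (horizontal axis) and the second (vertical axis) for ZnSO4 (left) and Dex (right), for the tested list genes, coloured by the number of settings in which they were called and for the 10 genes (red diamonds). For ZnSO4, 12 list genes were called in both settings and all lie in the upper right quadrant, and for Dex 18 were called in both.

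Conjugating enzymes, which attach glutathione, glucuronic acid or sulphate to the products of cytochromes P450, had 15 of 33 tested genes called higher and 0 lower on ZnSO4, averaged over PBS and Dex mice, where 6.24% of all genes were called higher and 6.52% lower. Among them were the glutathione transferases Gsta1 (LFC 1.43 ± 0.26, adjusted p = 0.0046), Gstm3 (1.40 ± 0.33, adjusted p = 0.018) and Gsta4 (1.22 ± 0.17, adjusted p = 0.0010). Of the 31-base stretches of Gsta1, 92.9% occur in another gene, as do 37.7% of those of Gstm3 and 0% of those of Gsta4. The median LFC of this list was 0.32, against -0.005 over all genes. For Dex, averaged likewise, 6 were called higher and 3 lower, where 10.4% of all genes were called higher and 11.2% lower. The sulphotransferases Sult1a1 (1.96 ± 0.12, adjusted p = 4.4e-07) and Sult1d1 (1.33 ± 0.12, adjusted p = 1.3e-05) and the microsomal glutathione transferase Mgst1 (1.01 ± 0.09, adjusted p = 8.0e-06) rose, and the glucuronosyltransferase Ugt2b5 fell (-0.67 ± 0.11, adjusted p = 0.0014). Ugt2b5 rose with ZnSO4 (1.12 ± 0.12, adjusted p = 1.5e-04), and 56.4% of its 31-base stretches occur in another gene.

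Among the other Cyp1 and Cyp2 genes 13 of 29 were tested, and 6 were called higher and 0 lower on ZnSO4, among them Cyp2d26 (1.32 ± 0.22, adjusted p = 0.0029), Cyp2c65 (1.26 ± 0.22, adjusted p = 0.0036) and Cyp2c68 (0.76 ± 0.12, adjusted p = 0.0016). For Dex 3 were higher and 2 lower. Of the 31-base stretches of Cyp2c68, 62% occur in another gene, as do 35.4% of those of Cyp2c65. Among all genes 6.24% were called higher and 6.52% lower on ZnSO4. For Dex these shares were 10.4% and 11.2%. Hydrolases and other phase I enzymes had 6 of 18 called higher and 0 lower on ZnSO4, led by the carboxylesterase Ces1g (2.00 ± 0.20, adjusted p = 1.3e-04), which stood beside Aldh1a1, a retinal dehydrogenase (0.77 ± 0.11, adjusted p = 9.8e-04). For Dex 3 of these enzymes were higher and 1 lower, near the 21.5% of all genes called. The carboxylesterase Ces1f was higher (0.90 ± 0.11, adjusted p = 1.0e-04) and the flavin monooxygenase Fmo4 lower (-0.85 ± 0.14, adjusted p = 0.0013). Of 12 genes of electron transfer and haem synthesis, 2 were called higher and 0 lower on ZnSO4, and 2 higher and 1 lower after Dex, near the 12.8% and 21.5% of all genes called in these comparisons. Alas1, which makes the first haem precursor, rose with Dex as Por did (0.64 ± 0.10, adjusted p = 5.8e-04). Of 17 tested transporters, 3 were higher and 0 lower on ZnSO4, among them Abcc6 (0.98 ± 0.14, adjusted p = 8.9e-04) and Abcc5 (0.73 ± 0.10, adjusted p = 9.3e-04), and 4 were higher and 1 lower after Dex, among them the carnitine transporter Slc22a5 (1.33 ± 0.13, adjusted p = 2.5e-05). Beside these counts stand the 12.8% and 21.5% of all genes called for ZnSO4 and for Dex.

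Of 16 tested sensing receptors and partners, 3 were called higher and 5 lower for Dex, where 10.4% of all genes were called higher and 11.2% lower. Tiparp, an aryl hydrocarbon receptor target and repressor (2.05 ± 0.09, adjusted p = 3.6e-08), and Ppara, the fatty acid receptor (1.90 ± 0.11, adjusted p = 4.5e-07), rose more than Nr1i2 did. Ahrr, the aryl hydrocarbon receptor repressor gene, was called lower (-0.83 ± 0.26, adjusted p = 0.038, mean of 50.3 normalised counts). Cyp1a1 was not called (-0.16 ± 0.39, adjusted p = 0.82). Nr3c1, the glucocorticoid receptor (-1.14 ± 0.06, adjusted p = 1.0e-07), and Nfe2l2, which codes for the activator of antioxidant response genes (-0.83 ± 0.05, adjusted p = 2.7e-07), fell.

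**Figure D5:**
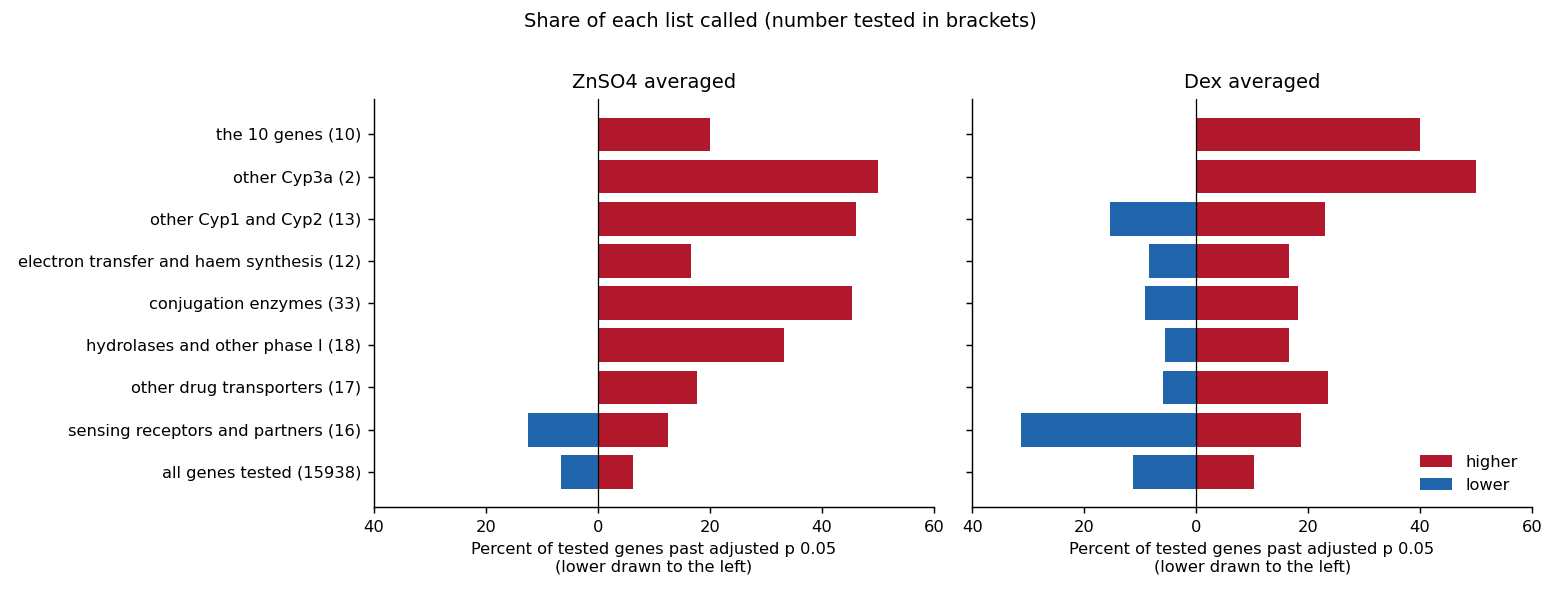
Percent of tested genes of each list called higher (red, to the right) or lower (blue, to the left) for ZnSO4 and for Dex, averaged over the other treatment, with the number tested in brackets and all genes tested in the bottom row. On ZnSO4 the conjugation enzymes (15 of 33) and the other Cyp1 and Cyp2 genes (6 of 13) are drawn to the right alone, beside 6.24% and 6.52% of all genes in the 2 directions.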

How the data were processed

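Ileum RNA of 12 mice was measured. Stranded TruSeq libraries were read from 1 end. Per the submitters' processing notes, HISAT2 2.0.4, featureCounts and mm10 were used. Multimapping reads were not counted, which lowers genes with close copies. The annotation release and strand setting are not given in the sources used here. The table the authors deposited holds raw counts per gene and library. Of its 54838 genes, 54809 were matched to GENCODE's GRCm38 annotation. Genes were filtered with filterByExpr (minimum count 10), TMM set the effective library sizes, and edgeR 4.0.16 (R 4.3.3) fitted all 4 groups together by quasi-likelihood, with Benjamini-Hochberg adjusted p values. Comparisons were ZnSO4 within PBS and within Dex mice, Dex within each drink, both averages and the interaction. Intervals use the residual and prior degrees of freedom. Alternatives were DESeq2 1.42.0, other scaling factors and filters, a replicate block, an LFC cut-off of 0.8, only the groups compared and leaving out each library. The procedure was tested on simulated data whose spread followed the trend over all genes. Genes with a larger spread of their own were not covered by it. The 10 genes and all lists were chosen with earlier results of these data known. Named are all 10 genes and, per list, comparison and direction, up to 3 called genes with the largest LFC and a mean of at least 50 normalised counts, of which some are printed. For Cyp3a11, Cyp2b10, Cyp2c55 and Cyp1a1 the 3 closest profiles (log2 CPM, prior count 2) are given. Cyp3a59, Cyp3a44 and Abcb1b were named after their values were seen. Promoters are from RefSeq and matched all 10 genes.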

Additional observations from a re-analysis of the deposited data

How the results depend on the processing

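Counts of the 10 genes called moved by over 1.5 times as follows. For ZnSO4 in PBS mice the count of 1 became 3 with DESeq2, 0 with RLE factors, 3 with all genes of at least 1 count, 2 with only the groups compared, 0 to 2 without 1 library, 4 with the enterocyte covariate and 5 without ZnSO4 + PBS replicate 3 and ZnSO4 + Dex replicate 2 together. There DESeq2 called 1056 genes in all, against 742 in the main edgeR fit. The fits with the covariate and without those libraries called 6.94% and 3.02% of all genes. For ZnSO4 in Dex mice the count of 0 became 1 with DESeq2 and with all genes of at least 1 count, 0 to 1 without 1 library, 2 with the covariate and 2 without those 2 libraries. In this comparison DESeq2 called 1022 genes in all, against 696 in the main edgeR fit. The fits with the covariate and without the 2 libraries called 2.33% and 3.29% of all genes. For ZnSO4 averaged the count of 2 became 1 to 3 without 1 library, 6 with the covariate and 5 without the 2 libraries. With the covariate 10.1% of all genes were called, and 9.48% without the 2 libraries. For Dex on water the count of 4 became 2 to 5 without 1 library. For Dex on ZnSO4 the count of 2 became 4 with the covariate, where 12.7% of all genes were called. It became 2 to 4 without 1 library and 1 with at least 10 counts in every library, a filter that removes Cyp2b10 by construction. With the LFC cut-off of 0.8 Nr1i2 was not called, and 3 genes were called for Dex on water. No called LFC changed direction under these alternatives. Apart from that filter the causes were not tested. Counts in this section without a number over all genes beside them describe the 10 genes alone. A change common to all genes cannot be told apart there. The replicate block took the ZnSO4 count from 1 to 0 in PBS mice and from 2 to 1 averaged. The numbers did not pair the mice: deviations from the group means had a median correlation of -0.0557 between libraries with the same number and 0.0225 between others. The covariate and the fit without 2 libraries were chosen after seeing the data. Depth was low for Cyp1a1, with at most 59 reads in a library, and for Cyp2b10 in PBS mice, with at most 17. Cyp3a59 was likewise low, with at most 45.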
